A study of Mus musculus with 4 samples.

Results

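The regions described here are stretches of methylated DNA that were called in both libraries of mouse pancreatic islets but whose read counts differed at least 2-fold between offspring of diabetic and of control fathers. They were found by methylated DNA immunoprecipitation sequencing (MeDIP-seq), in which an antibody against 5-methylcytosine pulls down sheared genomic DNA and the recovered fragments are sequenced. A peak is an interval where reads, here called tags, are denser than the background. A T2D peak and a control peak were taken as a pair where each overlapped exactly 1 peak of the other list by at least 1 bp. Tags were scaled to the summed tags of their list. Of 109337 such pairs on the 19 autosomes, 89730 held at least 60 tags in the 2 peaks together and are called measurable pairs. Of these, 3579 (3.99%) had a scaled T2D/control tag ratio of 2 or more or of 0.5 or less. They are called 2-fold pairs. They were chosen by this islet ratio, so their ratios, and the widths and enrichments from the same 2 lists, are a description and were put to no test. The ratio was 2 or more in 2150 pairs (2.4% of the measurable pairs), the higher pairs, and 0.5 or less in 1429 pairs (1.59%), the lower pairs. The 4 lists of the study held 690963 peaks in all.

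The study used ICR mice, an outbred strain. The T2D islet library came from islets of 3-week-old offspring whose fathers, as founders, ate a high-fat diet (33% of energy as fat) from weaning, received a low dose of streptozotocin at 12 weeks, a toxin of insulin-producing beta cells, and then had fasting glucose of 7 to 11 mM. The control islet library came from 3-week-old offspring of founders on control diet. The T2D sperm library and the control sperm library came from 16-week-old founders of the T2D kind and of the control kind, with sperm taken from the caudal epididymis. All mothers ate standard diet. Islets of 6 offspring and sperm of 6 founders stand behind each library, and the labels say neither how the animals were combined, nor which founder fathered which offspring, nor the sex of the offspring. Each group had 1 library, so no difference given here has a replicate check and none was tested. The labelled tissues were not checked against marker regions here.

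In mammals 5-methylcytosine is found mostly at CpG dinucleotides, where DNA methyltransferases place and copy it. Most paternal methylation is removed after fertilisation and laid down anew in the embryo, and imprinted regions are the textbook exception. Islets are the endocrine clusters of the pancreas, and in their beta cells DNA methylation takes part in keeping genes of other cell types silent. MeDIP recovers a stretch more readily where many methylated CpGs lie together, and it reports a regional signal and not the state of a single cytosine. Genes at the positions below were not determined here.

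The libraries of each tissue were of similar size. The T2D islet list held 8204393 tags in 167325 peaks and the control islet list 8223861 tags in 167712 peaks. The sperm lists held 11045303 tags in T2D and 11065974 in control. The unique tags of the islet libraries, estimated from the deposited enrichments, were about 24400000 in T2D and 25100000 in control. The same estimate gave about 31800000 for T2D sperm and 31000000 for control sperm, whose file headers state 31833988 and 31053754. The median ratio of all measurable islet pairs was 1.00, with quartiles of 0.830 and 1.24.

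The pair with the largest ratio lay at chr12:116796042-116798909 and held 147 tags in T2D islets, against 24 in control islets. Positions are those of the T2D islet peak on build mm9. The ratio was 6.14, with a 95% exact binomial interval of 3.97 to 9.89 that covers counting error only, as do all intervals here. The T2D peak was 2868 bp wide and the control peak 602 bp. A second pair lay just downstream, at chr12:116801179-116803874, with 108 tags in T2D islets, against 22 in control islets (ratio 4.92). In both, a long T2D peak lay over a short control peak. The next were chr2:76472514-76474984 with 124 tags in T2D and 27 in control islets (4.60), and chr17:6448304-6451434 with 290 and 64 tags in T2D and control islets (4.54). In both, the T2D peak was over 4 times as wide as the control peak, with width ratios of 5.77 and 4.38, while tags per kb, scaled in the same way, gave ratios of 0.797 and 1.04. The pair chr16:3516073-3517725 held 104 tags in T2D and 23 in control islets (4.53), and chr5:137460184-137461831 held 113 in T2D and 25 in control islets (4.53).

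Among lower pairs the most extreme lay at chr7:38977701-38978387, with 33 tags in T2D islets, against 250 in control islets, a ratio of 0.132 (0.0891 to 0.191). Here the control peak was the long one, at 3237 bp, against 687 bp in T2D. The pair chr17:17304615-17305280 was of another kind. It held 19 tags over 666 bp in T2D islets, against 113 tags over 889 bp in control islets, so that its tag ratio of 0.169 came with a ratio of 0.225 for tags per kb. The next by ratio were chr11:96696298-96696958 with 29 tags in T2D and 145 in control islets, chr14:44621014-44621622 with 21 and 99 tags in T2D and control islets, chr17:5772170-5772872 with 33 and 154, and chr13:117956621-117957807 with 36 and 159. Their ratios ran from 0.200 to 0.227.

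**Figure D1:**
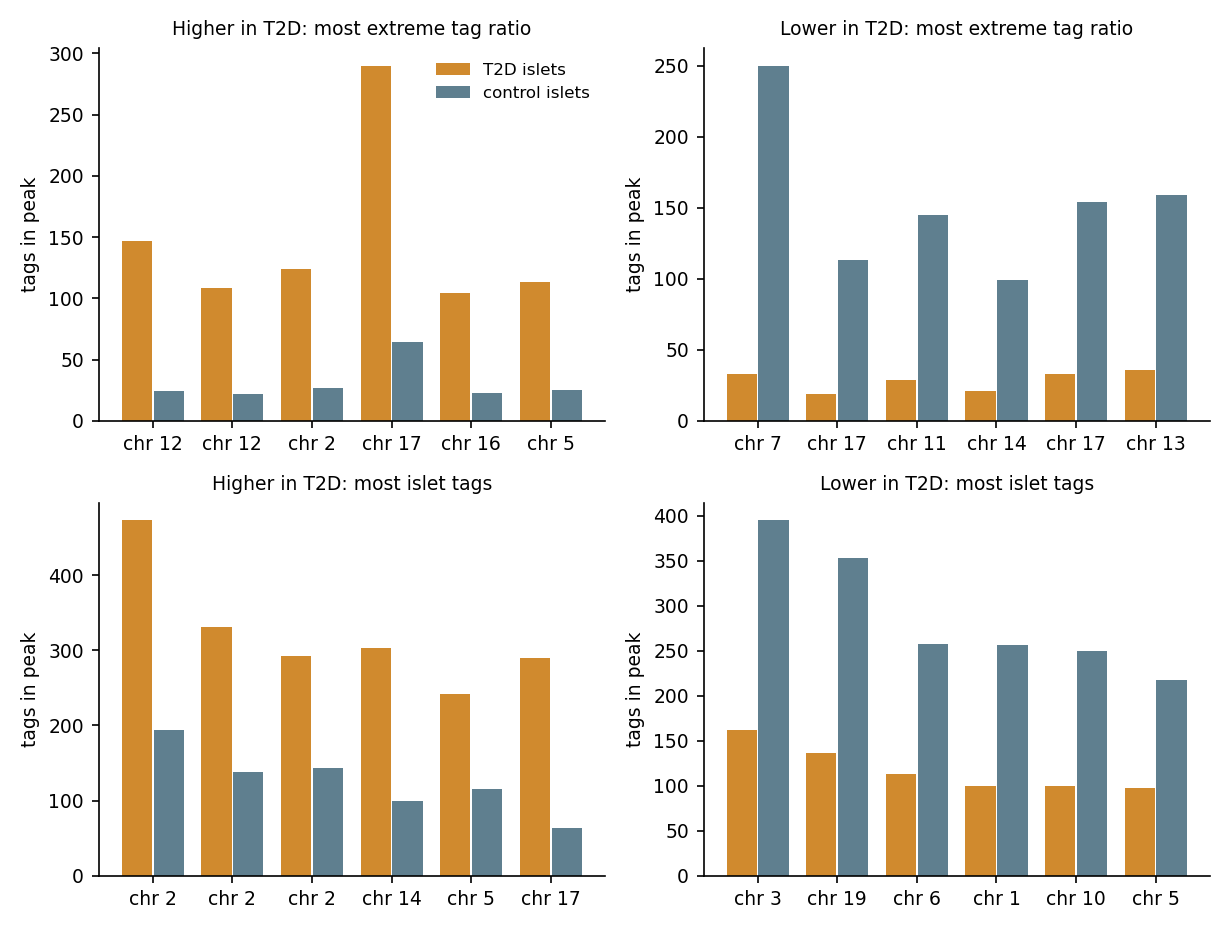
Tags per peak (vertical axis, unscaled) in T2D islets (left bar of each pair) and control islets (right bar) for the 6 pairs with the most extreme ratio and the 6 with the most tags, higher pairs on the left and lower pairs on the right, each named by its chromosome. The most extreme pairs reach 147 against 24 tags on chromosome 12 and 33 against 250 tags on chromosome 7; there are no error bars because each bar is 1 library.

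The 2-fold pairs with the most tags, in which counting error is small, included a group of neighbours on chromosome 2. At chr2:177307248-177310035 the peak held 473 tags in T2D islets and 194 in control islets, a ratio of 2.44 (2.06 to 2.90). At chr2:177020802-177023205 it held 331 tags in T2D and 138 in control islets (2.40), and at chr2:177331224-177333392 it held 293 tags in T2D and 144 in control islets (2.04). In the first and the last of these the T2D peak was slightly narrower than the control peak, with width ratios of 0.925 and 0.919. The others were chr14:75729228-75732413 with 303 tags in T2D and 100 in control islets (3.04), chr5:145416411-145419507 with 242 in T2D and 115 in control islets (2.11) and the chromosome 17 pair with 290 tags in T2D islets named above. Lower pairs with the most tags were led by chr3:88174971-88176264, with 162 tags in T2D islets, against 395 in control islets (0.411, 0.340 to 0.495), and chr19:29155880-29156967, with 136 in T2D and 353 in control islets (0.386). Then came chr6:72279112-72280790, chr1:33694357-33695426, chr10:80325440-80326466 and chr5:73480049-73480961. They held 98 to 113 tags in T2D islets, against 217 to 258 in control islets. In all 6 the control peak was the wider, with T2D/control width ratios of 0.322 to 0.620. Their scaled ratios of tags per kb ran from 0.708 to 1.27. They were below 1 on chromosomes 3 and 6 and above 1, against the tags, on chromosomes 19, 1, 10 and 5.

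Most 2-fold pairs lay close to the limit. The median ratio was 2.22 in higher pairs (quartiles 2.09 and 2.47) and 0.445 in lower pairs (0.399 and 0.473), and 126 higher and 84 lower pairs went past 3-fold. The interval of the ratio lay wholly beyond 2-fold in 117 higher and 81 lower pairs. It comes from the counts that chose the pairs and allows neither for that choice nor for unequal peak widths. These numbers are therefore a description and no test. A higher pair held a median of 66 tags in T2D islets, against 28 in control islets. A lower pair held 29 in T2D and 70 in control islets, and a measurable pair 52 in T2D and 51 in control islets. The share of pairs past the limit was 4.50% of the 23622 pairs with 60 to 79 tags and 4.52% of the 18200 with 80 to 99 tags, and it was lower in each deeper class. It was 4.05% of the 26662 pairs with 100 to 149 tags and 1.25% of the 2248 pairs with 300 tags or more, of which 19 were higher and 9 lower. Both peaks of a pair had to be called, and none held fewer than 18 tags. This limits the ratio most in the class of 60 to 79 tags.

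The scaling placed exact ratios of tag counts on different sides of the limit. The 196 pairs with exactly 2 T2D tags for each control tag had a scaled ratio of 2.00 and were just inside, such as chr15:54746349-54748750 with 130 tags in T2D and 65 in control islets and chr13:60707381-60709265 with 120 and 60. The 189 pairs with exactly 2 control tags for each T2D tag had a scaled ratio of 0.501 and were just outside, such as chr7:71198475-71199452 with 82 tags in T2D and 164 in control islets and chr5:66691219-66692430 with 65 and 130. Just outside on the upper side were chr2:177292004-177294797, with 311 tags in T2D and 156 in control islets, and chr10:98905870-98908425, with 199 and 100. Just inside on the lower side were chr11:60756236-60757650, with 97 tags in T2D and 195 in control islets, and chr19:42398727-42399994, with 84 and 169. Without scaling there were 2150 higher and 1618 lower pairs, since all of those 189 then count.

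Width moved with the tags in nearly all of these pairs. The T2D peak was the wider in 2090 of 2150 higher pairs (97.2%) and the control peak the wider in 1371 of 1429 lower pairs (95.9%). Over all measurable pairs, 56.0% had the wider peak in T2D. Median width in higher pairs was 1464 bp in T2D islets and 726 bp in control islets, with a median width ratio of 2.01 (quartiles 1.55 and 2.55). In lower pairs it was 745 bp in T2D and 1427 bp in control islets, with a median ratio of 0.526 (0.409 and 0.686). Measurable pairs were 1044 bp wide in T2D and 1003 bp in control islets, and their median ratio was 1.03. Width differed 2-fold or more the same way in 1085 higher and 640 lower pairs. Among all measurable pairs it was at least 2-fold wider in T2D in 3.39%, at least 2-fold narrower in 1.94% and either in 5.33%. On a log scale, width made up a median of 84.6% of the tag ratio in higher pairs and 77.0% in lower pairs. Width and tags come from the same 2 lists and a longer interval collects more tags, so these values are no separate evidence of a change.

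**Figure D2:**
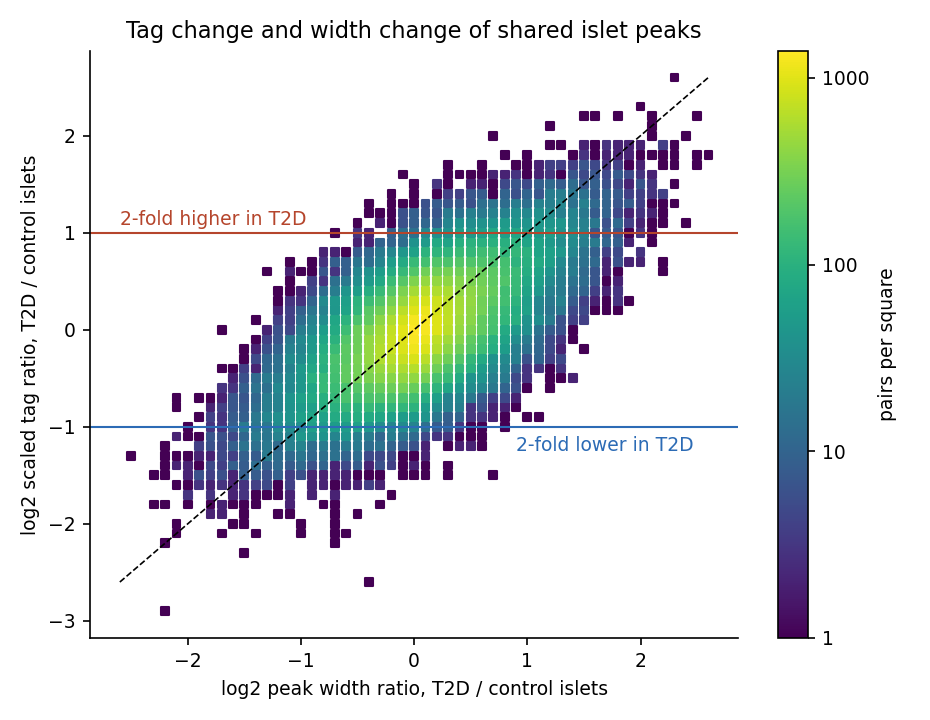
Log2 T2D/control ratio of scaled tags (vertical axis) against log2 T2D/control ratio of peak width (horizontal axis) for the 89730 measurable islet pairs, colour giving the number of pairs per square of 0.1 by 0.1 on a log scale. The 2150 pairs on or above the upper line lie mostly right of 0 and the 1429 below the lower line mostly left of it; on the dashed diagonal tags and width change by the same factor.

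The summits of a pair lay close together even where its widths did not match. The narrower peak was nested inside the wider one in 1547 higher pairs (72.0%) and 904 lower pairs (63.3%). In nested pairs a median of 83.2% and 82.8% of the added length lay on the longer side in higher and lower pairs. The longer side was picked separately in each pair, so these medians are high by construction. Neither they nor the nested shares were taken for all measurable pairs, so whether 2-fold pairs differ from the rest in this was not tested. The summits lay a median of 36 bp apart in higher, 35 bp in lower and 30 bp in measurable pairs, and within 200 bp of each other in 82.4%, 81.0% and 90.1%.

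Tags per kb differed less than tags. In higher pairs the median was 48.1 tags per kb in T2D and 41.0 in control islets, a scaled ratio of 1.14 (quartiles 0.927 and 1.45), and in lower pairs 41.0 in T2D and 52.1 in control islets, a ratio of 0.817 (0.640 and 1.02). In 723 higher pairs (33.6%) and 376 lower pairs (26.3%) the density of tags moved against the tags. The deposited fold enrichment at the summit, the authors' own value for each peak relative to its library, was greater on the side with more tags in 1288 higher pairs (59.9%) and 969 lower pairs (67.8%). Both measures leaned to control over all measurable pairs. There the median ratio of tags per kb was 0.974, with 46.0% of pairs above 1, and median enrichment was 7.46 in T2D and 7.66 in control. The contrast between higher and lower pairs was not separated from this offset.

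The number of measurable pairs past 2-fold in tags per kb was 702 higher (0.782%) and 1176 lower (1.31%), or 2.09% together. Measured per kb, 37.4% of these pairs were thus higher, whereas by tags 60.1% of the 2-fold pairs were higher. The pairs past 2-fold by both measures numbered 125 higher and 140 lower. Widths within 10% of each other were found in 27175 measurable pairs, of which 82 (0.302%) were higher and 75 (0.276%) lower.

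The position of the summit within the peak differed between the islet lists as well. In both sperm lists the commonest summit position, 272 bp from the start of the peak in T2D and 278 bp in control, was the fragment length stated in the file header. In the islet lists the same position was 266 bp in T2D and 254 bp in control. Over pairs with 60 or more tags, the median T2D/control width ratio was 1.03 in islets and 0.998 in sperm. Dividing each islet tag ratio by the median width ratio gave 1715 higher and 1843 lower pairs, with 48.2% higher. That division was chosen after the values were seen, and the part of the fragment length in the surplus of higher pairs was not tested further.

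The higher pairs whose tags per kb differed most had short T2D peaks, of 516 to 720 bp. They were led by chr14:42795498-42796070, with 97.7 tags per kb in T2D islets and 29.4 in control islets, a scaled ratio of 3.33, and chr3:81016227-81016811, with 101 tags per kb in T2D and 32.5 in control islets (3.11). In both, enrichment differed the same way, at 15.20 in T2D against 8.73 in control, and at 13.67 in T2D against 7.48 in control. The remaining 4 were chr1:184106997-184107716, chr12:41282534-41283176, chr14:28115700-28116281 and chr1:176511952-176512467, with ratios of 2.89 to 3.10. All 6 held 47 to 68 tags in T2D islets, against 20 to 27 in control islets, and in each the T2D peak was the narrower. Lower pairs were led by chr11:63587823-63589004, with 45 tags in T2D islets, against 129 in control islets, or 38.1 against 173 tags per kb (0.221). The chromosome 17 pair with 19 tags in T2D islets came second. The others were chr13:37923501-37924149, chr10:18501669-18502378, chr8:89233571-89234700 and chr5:135761087-135761969, with 19 to 27 tags in T2D and 45 to 64 in control islets and tags per kb at ratios of 0.285 to 0.310. In these 4, unlike the chromosome 17 pair, the T2D peak was the wider. Ranking by tags per kb favours a narrower peak on the denser side, so the widths in both lists follow in part from the choice. Most of the weaker peaks held 19 to 27 tags, near 18, the fewest in a peak of any measurable pair.

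Sperm gave a view of the same regions that the choice of pairs did not use. At least 1 peak in each sperm list overlapped 1211 higher pairs (56.3%, exact interval 54.2% to 58.4%) and 855 lower pairs (59.8%, 57.2% to 62.4%), against 62.0% of the measurable pairs under 2-fold. No sperm peak was found at 476 higher pairs (22.1%) and 290 lower pairs (20.3%), against 20.6% of the pairs under 2-fold. A single one-to-one pair of T2D and control sperm peaks, from which a ratio could be taken, lay over 1174 higher and 827 lower pairs.

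Sperm ratios lay above 1 at about the same share of both kinds of pair. The sperm T2D/control ratio was above 1 in 596 of the 1174 higher pairs (50.8%, 47.9% to 53.7%), in 421 of the 827 lower pairs (50.9%, 47.4% to 54.4%) and in 49.5% of the pairs under 2-fold. Its median was 1.00 in higher, 1.00 in lower and 0.991 in pairs under 2-fold. Direction was the same in both tissues in 1002 of 2001 pairs (50.1%, 47.9% to 52.3%). Among the 459 past 2.5-fold in islets it was the same in 222 (48.4%), and among the 110 past 3-fold in 52 (47.3%). Of the 161 pairs past 2-fold in tags per kb as well, 82 (50.9%) had the same direction in sperm by tags. Width ratios in sperm had medians of 0.995 at higher and 1.01 at lower pairs.

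**Figure D3:**
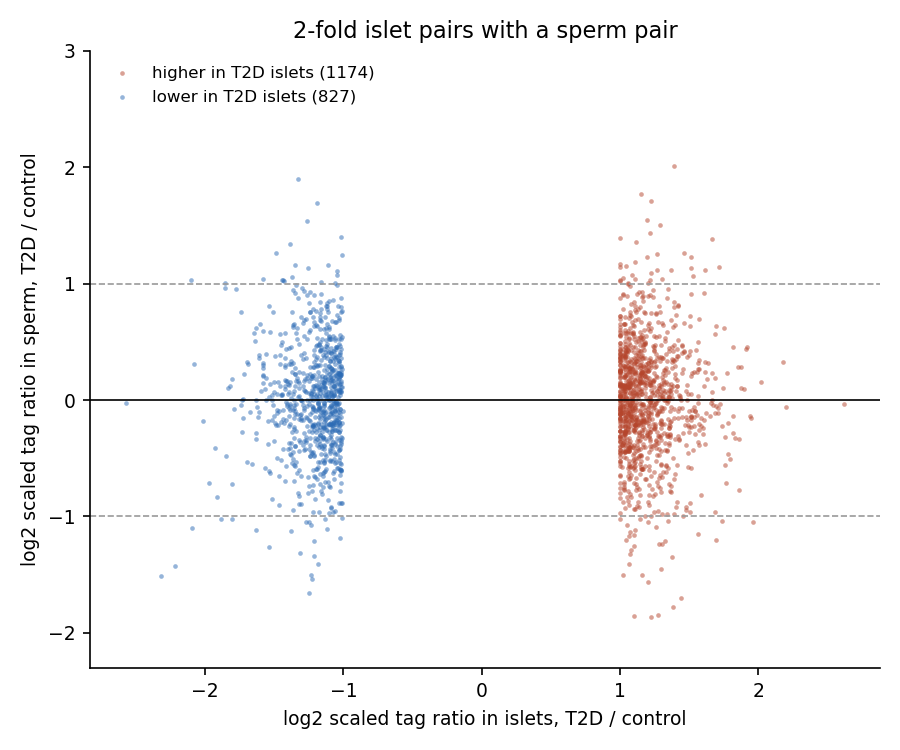
Log2 scaled T2D/control tag ratio in sperm (vertical axis) against that in islets (horizontal axis) for the 2001 islet 2-fold pairs that have 1 sperm pair, with lower pairs left and higher pairs right of the gap that the choice of pairs makes; dashed lines mark 2-fold in sperm. Both clouds are centred near 0 on the sperm axis, with 596 of 1174 higher and 421 of 827 lower pairs above it.

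A sperm difference of 2-fold or more, in either direction, was counted at a larger share of these regions than of the rest. It was seen at 108 of the 2001 pairs (5.40%, 4.45% to 6.48%), against 1352 of 53129 pairs under 2-fold in islets (2.54%, 2.41% to 2.68%) and 2.65% of all 55130 measurable pairs with a sperm pair (1.22% higher and 1.43% lower). Of the 108 pairs, 55 had the same direction as in islets and 53 the opposite. Sperm peak width differed 2-fold at 8.05% of the 2-fold pairs (6.89% to 9.33%) and at 4.15% of the others, and sperm tags per kb at 1.75% (1.22% to 2.42%) and 1.52%. The sperm pairs held a median of 139 tags at 2-fold pairs and 144 at the others. Median sperm peak widths at higher pairs were 1237 bp in T2D and 1258.5 bp in control. At lower pairs they were 1215 bp in T2D and 1162 bp in control, and at pairs under 2-fold 1160 and 1172 bp. Over all 113033 sperm pairs with 60 or more tags, tags were 2-fold higher in 1.62%, lower in 1.48% and either in 3.1%. Tags per kb were 2-fold higher in 0.839%, lower in 0.757% and either in 1.6%, and width in 2.35%, 2.44% and 4.8%. Regions of 1 library are not replicates, so these intervals say nothing of the spread between animals.

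Some pairs differed in tags in the same direction in both tissues, and those with the most extreme sperm ratio are given here. They were picked for that ratio among pairs of the same direction with 60 or more sperm tags. The first of the higher pairs was chr1:164086002-164087963, with 76 tags in T2D and 29 in control islets, and 133 tags in T2D and 33 in control sperm, a sperm ratio of 4.04. It was followed by chr12:77948780-77951463, with 160 tags in T2D and 47 in control sperm (3.41), and chr6:71548411-71549964, with 88 tags in T2D and 27 in control sperm (3.27). In these 3 the T2D peak was the wider in both tissues, with islet width ratios of 2.95 to 5.34 and sperm width ratios of 3.62 to 4.06. Their tags per kb had T2D/control ratios below 1, at 0.416 to 0.835 in islets and 0.839 to 0.994 in sperm. At the other higher pairs picked for their sperm ratio, the ratios of tags per kb were above 1 in both tissues. The pair chr13:112739491-112740185 differed in tags with slightly narrower T2D peaks, with 73 tags in T2D and 32 in control islets and 73 in T2D and 25 in control sperm. Its tags per kb had a ratio of 2.62 in islets and 3.21 in sperm. The chromosome 2 pair with 473 tags in T2D islets had 96 tags in T2D and 34 in control sperm (2.83), and chr10:85270476-85271193 had 70 in T2D and 26 in control sperm (2.70), where the control sperm peak lay beside the islet peaks and did not overlap them.

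On the lower side, chr6:109666099-109666820 had 26 tags in T2D and 62 in control islets, and 26 in T2D and 82 in control sperm, a sperm ratio of 0.318. Tags per kb were also lower in T2D in both tissues, at ratios of 0.469 in islets and 0.428 in sperm. At chr10:59831187-59832042 there were 26 tags in T2D and 61 in control islets, and 23 in T2D and 67 in control sperm (0.344). Of the 6 most extreme lower pairs by islet ratio, the chromosome 11 pair had 43 tags in T2D and 123 in control sperm (0.350), and the pair at chr17:5772170-5772872 had 43 in T2D and 116 in control sperm (0.371). At this chromosome 17 pair the control islet peak of 3179 bp lay over a control sperm peak of 3048 bp, against 877 bp in T2D sperm. Its tags per kb had T2D/control ratios of 0.971 in islets and 1.29 in sperm. At the other lower pairs picked for their sperm ratio, the ratios of tags per kb were below 1 in both tissues. The list closed with chr5:123901301-123902170, with 37 tags in T2D and 105 in control sperm (0.353), and chr2:71137484-71138319, with 42 in T2D and 112 in control sperm (0.376). By contrast, sperm at the highest islet ratio, on chromosome 12, held 210 tags in T2D and 215 in control, and at chr17:17304615-17305280 it held 59 in T2D and 60 in control.

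The 2-fold pairs were spread over all 19 autosomes. Higher pairs made up between 2.03% of the measurable pairs on chromosome 11 and 2.93% on chromosome 14. Lower pairs made up between 1.14% on chromosomes 8 and 16 and 1.90% on chromosome 10. Higher pairs outnumbered lower pairs on each of the 19, from 1.13 to 1 on chromosome 11 to 2.07 to 1 on chromosome 8. Over all autosomes this order turned round when ratios were divided by the median width ratio and when tags were taken per kb, as given above. Of the pairs in the first 5 Mb of a chromosome, measured from the first peak of any list, 4.21% were 2-fold pairs (3.55% to 4.96%), against 4.01% away from the ends (3.88% to 4.15%). In the last 5 Mb it was 3.43% (2.91% to 4.01%).

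**Figure D4:**
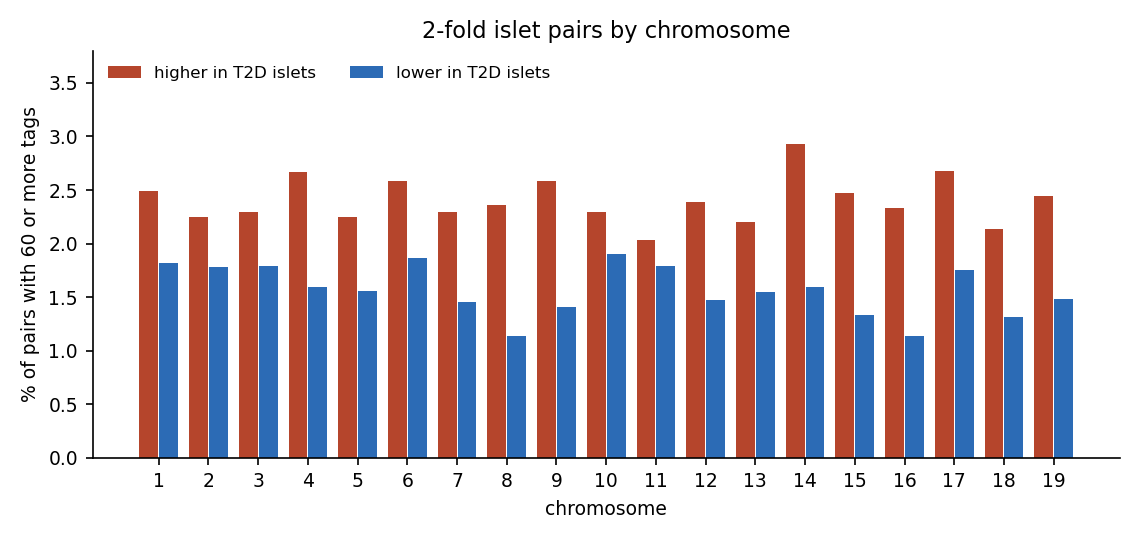
Higher pairs (left bars) and lower pairs (right bars) as a percentage of the measurable islet pairs of each autosome. Higher pairs range from 2.03% to 2.93% and exceed lower pairs, at 1.14% to 1.90%, on every chromosome shown.

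Most 2-fold pairs stood alone. With neighbours of the same direction joined up to a gap of 100 kb, 1691 higher and 1211 lower pairs had none, and 115 higher pairs fell into 34 runs of 3 or more and 44 lower pairs into 13. The nearest measurable pair, at a gap of 2 to 10 kb, was itself higher in 42 of 1128 higher pairs (3.72%) and lower in 11 (0.975%). For lower pairs it was higher in 10 of 725 (1.38%) and lower in 21 (2.90%), and around pairs under 2-fold the shares were 2.27% higher and 1.54% lower. At gaps of 10 to 50 kb it was higher in 19 of 702 higher pairs (2.71%) and lower in 5 (0.712%). For lower pairs it was higher in 13 of 479 (2.71%) and lower in 8 (1.67%), against 2.47% higher and 1.57% lower around pairs under 2-fold. Lower pairs thus had a larger share of lower neighbours at 2 to 10 kb but about the share of other pairs at 10 to 50 kb. The neighbour's ratio was above 1 for 53.4% of higher pairs, 52.4% of lower pairs and 52.2% of pairs under 2-fold at 2 to 10 kb, and for 60.1%, 46.6% and 52.4% at 10 to 50 kb. At gaps under 2 kb, 0 of 217 higher pairs had a higher neighbour and 5 (2.30%) a lower one, and a share up to 1.38% is within what a count of 0 allows. For lower pairs it was higher in 5 of 170 (2.94%) and lower in 2 (1.18%). Around pairs under 2-fold these shares were 2.16% higher and 1.66% lower, so same-direction neighbours were not more common at this gap.

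The largest runs held 5 or 6 pairs. They were picked by their islet ratios, so their islet side is given by the choice. At chr2:177267023-177333392, 6 of 9 measurable pairs were higher and the 9 ratios ran from 1.29 to 3.57, with a median of 2.04. The 6 higher pairs held 253, 213, 473, 149, 114 and 293 tags in T2D islets, against 71, 105, 194, 49, 47 and 144 in control islets. Tags per kb had a median ratio of 2.22 and width one of 1.06, so in this run the ratio lay more in the density of tags than in length. The pair at its upstream end was the exception, at 3107 bp in T2D and 708 bp in control islets. Sperm pairs lay over 2 of the 9 measurable pairs. At the higher pair with 473 tags in T2D islets there were 96 tags in T2D and 34 in control sperm. At chr2:177292004-177294797, just under the limit in islets, there were 211 in T2D and 83 in control sperm. Both ratios, 2.83 and 2.55, were on the same side as in islets. In the 200 kb on either side, 11 further pairs had a median islet ratio of 1.67, and the 1 sperm pair there had a ratio of 2.40. Of the 11, 1 was a higher pair and 0 were lower. Whether copy number differed in this stretch was not tested.

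At chr17:30614303-30723920, again 6 of 9 pairs were higher, with ratios from 1.41 to 2.41 and a median of 2.12. The 6 held 95, 123, 130, 57, 149 and 130 tags in T2D islets, against 45, 60, 59, 27, 62 and 55 in control islets. Width and tags per kb had similar median ratios, 1.38 and 1.37. Sperm was above 1 in 5 of 5 pairs, from 1.34 to 2.17 with a median of 1.39. The largest of them had 149 tags in T2D and 62 in control islets, and 182 in T2D and 84 in control sperm. The flanks held 20 pairs with a median islet ratio of 1.48, none of them past 2-fold, and 15 sperm pairs with a median of 1.06.

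In the other runs of this size most sperm pairs did not lie on the side of 1 that names the run. At chr16:3625317-3690799, 5 of 6 pairs were higher, with a median ratio of 2.78 over the 6. The higher pairs held 55, 88, 95, 93 and 106 tags in T2D islets, against 24, 25, 27, 32 and 40 in control islets, while the 3 sperm pairs had ratios of 0.907, 0.935 and 1.37. The flanks held 10 pairs with a median islet ratio of 1.31, 2 of them higher and 1 lower, and 5 sperm pairs with a median of 0.960. Both higher ones lay upstream, beyond the gap of 100 kb, and include chr16:3516073-3517725 named above. At chr10:61766692-61913670, 6 of 16 pairs were lower and 0 were higher. The median of the 16 was 0.918, so the lower pairs lay among others near 1, and sperm was above 1 in 7 of 8 pairs, with a median of 1.22. Sperm pairs over the lower pairs themselves had ratios of 1.00, 1.31 and 1.45. The rest of the 8 lay over pairs under 2-fold, some of them above 1 in both tissues. The flanks of this run held 32 pairs with a median islet ratio of 0.928, 1 of them lower and 0 higher. Their 22 sperm pairs had a median of 0.904. Over all runs of 3 or more, direction in sperm was the same in 28 of 58 higher pairs (48.3%, 35.0% to 61.8%) and 9 of 20 lower pairs (45%, 23.1% to 68.5%).

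**Figure D5:**
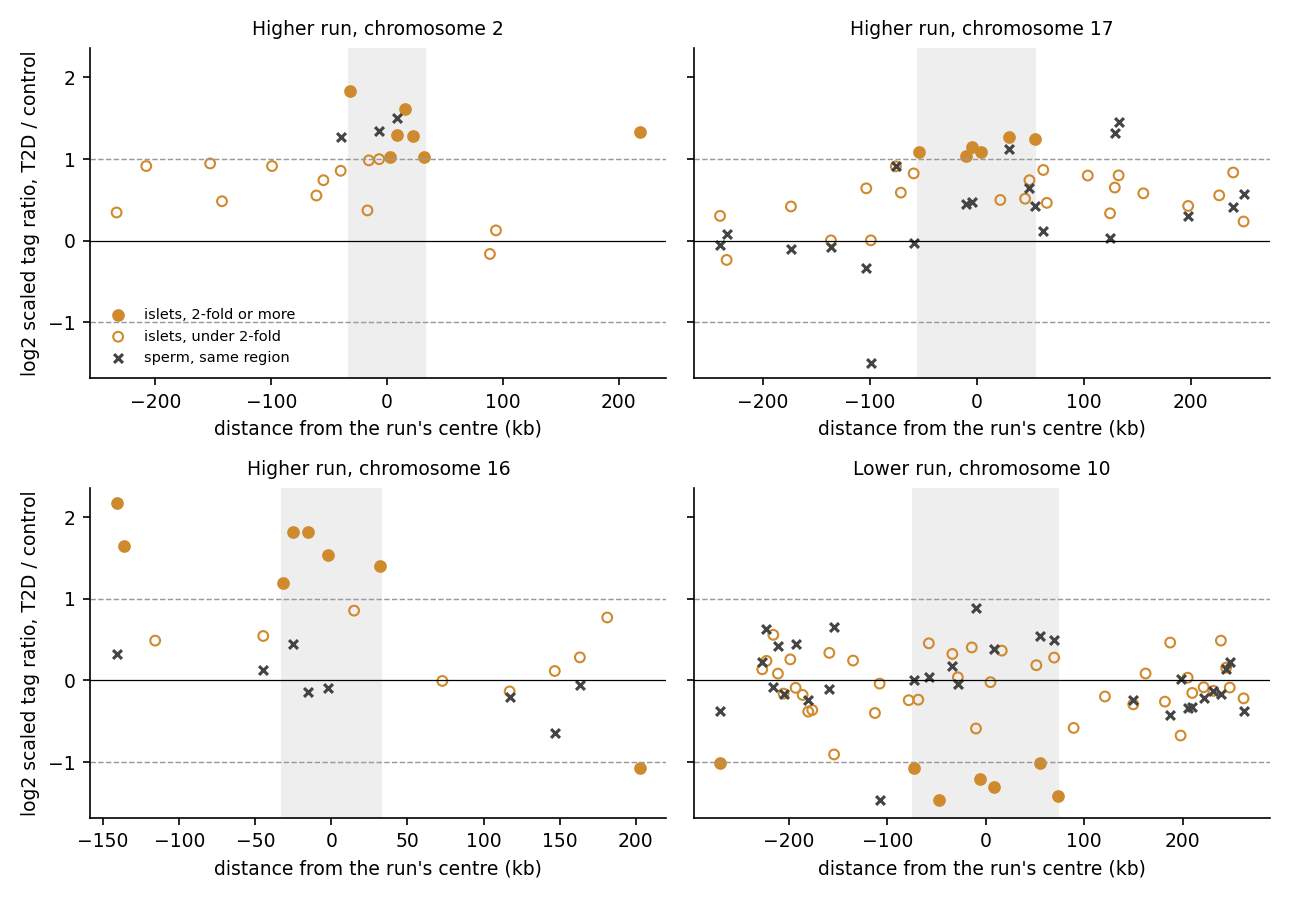
Log2 scaled T2D/control tag ratio of every measurable islet pair (circles, filled for 2-fold pairs) and of sperm over the same region (crosses) against distance in kb from the centre of the 4 largest runs, the grey band marking each run and 200 kb shown on either side. On chromosomes 2 and 17 the sperm crosses inside the band lie above 0 and on chromosome 16 they lie on both sides. On chromosome 10 they lie above 0 in 7 of 8 cases, most of the 8 over open circles, while the filled islet circles lie below 0.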

How the data were processed

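The pairs, limits and named regions were chosen with earlier results of these data known. The authors deposited 1 peak list per library, on mm9 with CASAVA 1.4 per the submitters' processing notes. Per the file headers, sperm peaks were called by MACS with no input library (p-value limit 1.00e-05, 49 bp tags, at most 2 tags per position), so regions of unequal copy number are not corrected for. The islet caller is one not given in the sources used here. The deposited tag counts are whole numbers, the deposited fold enrichment is relative to the caller's background, and the deposited score is 10 times −log10 of the p-value.

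Peaks were paired and scaled with python 3.11.15, numpy 2.4.6, pandas 2.3.3 and scipy 1.17.1. The steps were tested on simulated lists in which both peaks of a pair had the same width. Tag changes that come with a change of width were thus not covered by that test. Intervals are exact binomial at 95% and cover counting error only. They treat tags as independent, which copies from 15 PCR cycles are not, so they may be too narrow even for that error. Islet depth was estimated as the background read from the regular steps of the enrichments (2.454 tags in T2D, 2.406 in control) times the 2.65e+09 bp of the sperm headers, over the commonest summit position.

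By rule, 6 pairs per direction are named for the most extreme tag ratio, tags, tags per kb and sperm ratio, with the 2 nearest the limit on each side. The first make 43 distinct regions, 5 of them under more than one heading. Runs were chosen after their values were seen. Alternatives were other scalings, tag minimums, overlaps, limits and an enrichment filter.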

Additional observations from a re-analysis of the deposited data

Results flagged for a closer look

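Values of the T2D library relative to the control library lay on opposite sides of equality in islets and in sperm for 2 measures. Each rests on 1 library per group, so condition and library cannot be told apart, and the difference between tissues was not tested. The median T2D/control width ratio of pairs with 60 or more tags was 1.03 in islets and 0.998 in sperm. Among pairs past 2-fold in tags per kb, 37.4% were higher in T2D in islets and 52.5% in sperm.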

How the results depend on the processing

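The main counts were 2150 higher and 1429 lower pairs. Another scaling, a minimum of 30 tags and groups of any number of overlapping peaks gave 1715 to 2392 higher and 1256 to 1843 lower pairs. All were within 1.5 times the main counts. Higher pairs outnumbered lower pairs in these, except after division by the median width ratio, which gave 1715 higher and 1843 lower. The scaling to estimated unique tags, the restriction to equal widths and the division by the median width ratio were chosen after seeing the data. The first gave 2392 higher and 1256 lower pairs. Higher and lower counts became 979 and 715 with a minimum of 100 tags, 1057 and 766 with a reciprocal overlap of 50%, 9559 and 7695 at a limit of 1.5-fold, 126 and 84 at 3-fold, 557 and 354 among peaks of at least the median control enrichment of 7.35, and 82 and 75 among pairs with widths within 10%. Tags per kb gave 702 higher and 1176 lower pairs. Only 125 and 140 of these were also 2-fold by tags, so most were other regions. Apart from limits that admit fewer or more pairs by construction, the cause was not tested.

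The median width ratio of higher pairs, 2.01, became 2.31 with a minimum of 100 tags, 1.54 with the reciprocal overlap and 3.07 at 3-fold. That of lower pairs, 0.526, became 0.472, 0.672 and 0.382 in the same order, and 0.543 without scaling. The share with the same direction in sperm, 50.1%, stayed between 48.4% and 51.3% under 6 alternatives and was 47.3% at 3-fold. No paired analysis was possible because each group has 1 library. The depth of the islet libraries is an estimate, and with 1 library per group the spread between animals is unknown.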

Other observations

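Pairs on the X chromosome, which the choice of pairs leaves out, numbered 1353 with 60 or more tags. Of these, 47 (3.47%) were higher and 15 (1.11%) lower in T2D islets. Their median tag ratio was 1.07, their median width ratio 1.06 and their median ratio of tags per kb 0.993. Whether the offspring were male or female is not stated in the labels.

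Among smaller runs, chr10:117731682-117815899 held 4 lower pairs among 6 measurable ones, with a median ratio of 0.472 over the 6 and no sperm pair. At chr8:74329748-74344712 all 3 measurable pairs were higher, from 2.03 to 3.21, with 1 sperm pair at 1.07. At chr2:176970304-177023205, upstream of the large chromosome 2 run, 3 of 4 pairs were higher with a median of 2.48. These runs were chosen after their values were seen.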
